A study of Mus musculus with 9 samples.

Results

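MC38-LM3b and MC38-LM3a are a pair of liver-metastatic derivatives of MC38, a mouse colon carcinoma line of C57BL/6 origin, and the libraries compared here were the 3 labelled MC38-LM3b and the 3 labelled MC38-LM3a, 6 of the 9 in the series. The study calls both derivatives independently derived, as the third generation of selection. They were obtained by injecting MC38 cells into the spleen of immunocompetent mice, removing the liver lesions and growing the cancer cells out. MC38-LM1 and MC38-LM2 are named as the earlier generations, and the text of the study does not say whether both derivatives shared them. The cells of every group carried the GFP and firefly luciferase label of the parental line, MC38-P, and RNA came from cultured cells with no further treatment named in the labels. Each derivative is 1 selected population, so the replicates are separate samples of 1 line, and the p-values measure the spread between those samples and not between independent selections. The comparison asks where the derivatives, selected for the same organ, differ from each other.

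Cells that colonise the liver must leave the portal blood, survive among hepatocytes and resident macrophages, and grow in a new matrix. Repeated passage through an organ enriches variants already present in a tumour cell population as well as changes acquired on the way, so independently selected derivatives can share some changes and carry others alone. Surface receptors, interferon-induced proteins, matrix proteins and metabolic enzymes are among the groups commonly followed in such cells.

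Values were TPM, a level scaled to transcript length and to the total of the library. A gene was tested when 3 or more of the 6 libraries reached 1 TPM, which left 11123 of the 16399 genes listed. The difference of a gene is the mean of log2(TPM + 1) in MC38-LM3b minus that in MC38-LM3a, after each library was centred on its median. An adjusted p under 0.05 in limma is called past the test, and a differentially expressed gene also had an absolute log2 fold change above 1. The depth of the libraries is unknown, since TPM keeps no counts.

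MC38-LM3a replicate 3 stood apart from the other MC38-LM3a libraries. Its mean Pearson correlation across genes was 0.991 with MC38-LM3a replicates 1 and 2 and 0.996 with the MC38-LM3b libraries. The root mean square distance of its centred values was 0.285 to MC38-LM3a replicates 1 and 2 and 0.176 to MC38-LM3b, whereas MC38-LM3a replicates 1 and 2 lay 0.161 apart and the MC38-LM3b libraries 0.159 apart on average. The library kept its label here, and the counts of genes are given with it and without it.

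The labels call the samples epithelial cells of the colon. The keratins Krt8, at 744 to 851 TPM, and Krt18, at 707 to 799 TPM, were high in all 6 libraries, while Cdh1, the adhesion molecule E-cadherin, reached 0.080 TPM at most and Epcam 2.40 TPM. In all, 12 of 24 epithelial markers were under 1 TPM in all 6 libraries, and Vim, an intermediate filament of mesenchymal cells, was at 3264 to 3491 TPM. Of the markers of T cells and other leukocytes, 10 of the 22 written were listed and all 10 were under 1 TPM in every library, as were 13 of 14 listed hepatocyte markers, 9 of 11 endothelial markers, 8 of 10 macrophage markers, 9 of 14 stellate and fibroblast markers and all 7 erythroid markers. The highest macrophage marker was Cd68, a lysosomal protein, at up to 45.6 TPM, and the highest stellate and fibroblast marker was Pdpn, a membrane glycoprotein, at up to 194 TPM. The stellate and fibroblast list summed to 223 to 247 TPM in MC38-LM3a and 262 to 269 TPM in MC38-LM3b. The macrophage list summed to 49.2 to 54.5 TPM against 56.1 to 60.8 TPM, and the hepatocyte list to 2.11 to 2.71 TPM against 2.84 to 4.64 TPM. These 3 summed levels, which are not centred, were higher in every MC38-LM3b library. On centred values with 6 libraries, the median difference was -0.07 for the 2 tested macrophage genes. It was -0.03 for the 5 tested stellate and fibroblast genes and 0.42 for the 1 tested hepatocyte gene, Apoa2. The part of these lists in the results, those on Ly9 and Scarf1 included, was not tested. In such bulk samples a smaller share of cells of one kind and less RNA per cell cannot be told apart.

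With all 6 libraries, 6 genes passed the test, which is 0.0539% of those tested. Luzp4, Scarf1 and Ly9 were higher in MC38-LM3b, and Padi4, Ifitm1 and H4c9 were lower. Luzp4, Scarf1 and Padi4 were differentially expressed, which is 0.0270% of the genes tested. At an unadjusted p under 0.05 there were 3113 genes. The test used MC38-LM3a replicate 3, so that its values lie with its own line in these 6 genes, with no overlap between the lines, follows from how they were chosen. Over all genes tested the lines did not overlap in 30.5%.

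The RefSeq sequences used here cover the upstream region of 4 of these 6 genes. The 250 bases before the start of each are shown because they are the regions that set where transcription of the genes that separate the lines begins. All are from GRCm38.p6, read on the gene's strand. Luzp4 lies on the plus strand at chrX:148882326-148882575, Padi4 on the minus strand at chr4:140774204-140774453, Ifitm1 on the plus strand at chr7:140967826-140968075 and H4c9 on the minus strand at chr13:22041363-22041612. Capitals mark the letters of a CCAAT box (CCAAT) or a TATA box (TATAAA) found on either strand, by match of the letters alone.
Luzp4: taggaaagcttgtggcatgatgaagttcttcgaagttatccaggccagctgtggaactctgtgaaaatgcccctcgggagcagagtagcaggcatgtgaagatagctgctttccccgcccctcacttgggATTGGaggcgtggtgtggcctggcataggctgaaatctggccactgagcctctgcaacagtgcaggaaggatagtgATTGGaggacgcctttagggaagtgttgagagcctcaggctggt
Padi4: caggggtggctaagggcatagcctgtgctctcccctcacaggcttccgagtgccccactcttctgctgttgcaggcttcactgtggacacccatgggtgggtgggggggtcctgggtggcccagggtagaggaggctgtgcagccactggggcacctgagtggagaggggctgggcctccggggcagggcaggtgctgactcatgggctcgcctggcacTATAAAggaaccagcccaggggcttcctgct
Ifitm1: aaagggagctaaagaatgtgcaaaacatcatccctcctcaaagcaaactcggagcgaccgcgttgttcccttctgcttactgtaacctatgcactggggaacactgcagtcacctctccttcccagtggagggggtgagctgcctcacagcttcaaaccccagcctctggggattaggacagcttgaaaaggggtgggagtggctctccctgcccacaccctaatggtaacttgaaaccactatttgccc
H4c9: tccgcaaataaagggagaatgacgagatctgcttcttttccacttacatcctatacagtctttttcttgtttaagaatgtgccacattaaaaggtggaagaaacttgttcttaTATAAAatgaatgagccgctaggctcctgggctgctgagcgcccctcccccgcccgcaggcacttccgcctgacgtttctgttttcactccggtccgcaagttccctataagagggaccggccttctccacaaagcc

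The upstream sequence of Luzp4 held 2 CCAAT matches, both on the opposite strand, and those of Padi4 and H4c9 each held 1 TATAAA match. The match of Padi4 ended 26 bases before the start and that of H4c9 132 bases before it. Whether any of these matches acts in transcription was not tested. The core-binding factor motif TGTGGT, also searched on both strands, was in none of the 4. Among the 8974 tested genes with such a sequence, 37.8% held CCAAT, 6.10% TATAAA and 10.3% TGTGGT. The motifs did not overlap in these 4 sequences.

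Luzp4 (NCBI Gene 434865, chromosome X) encodes a leucine zipper protein whose human counterpart is known as a cancer-testis antigen and an mRNA export factor. Its TPM was 0.24, 0.32 and 0.18 in MC38-LM3a and 3.34, 3.52 and 3.20 in MC38-LM3b. All MC38-LM3b libraries were above all MC38-LM3a libraries, and the gene stayed under 1 TPM in MC38-LM3a. Mean TPM was 0.247 ± 0.0702 against 3.35 ± 0.160 (SD, n = 3 each), a ratio of 13.6, and the log2 fold change was 1.58 with a standard error of 0.13 (limma adjusted p = 0.00788). In the parental libraries the TPM was 0.17, 0 and 0.060. Because every MC38-LM3a library was under 1 TPM, the gene was tested only through MC38-LM3b and had to differ, so these values are a description. With any 1 MC38-LM3b library left out, or with 1 TPM asked of all libraries, it was not tested. Among the 8 tested genes of the germline and cancer-testis list, no other passed the test in the 6 libraries. Pbk, a mitotic kinase, had the largest fall of that list in 5 libraries, at -0.33 (-0.15 after correction for length and GC content). Before centring it was at 70.2, 73.8 and 75.8 TPM in MC38-LM3a and 68.1, 71.4 and 74.2 TPM in MC38-LM3b, which overlap. Over the 15 settings tried with 5 libraries its log2 fold change ran from -0.38 to -0.02, so the size of this fall depends on the processing.

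Scarf1 (NCBI Gene 380713, chromosome 11) encodes a scavenger receptor that binds modified lipoproteins and apoptotic cells and is best known from endothelium and phagocytes. Its TPM was 1.24, 1.21 and 1.35 in MC38-LM3a and 5.20, 4.26 and 4.78 in MC38-LM3b. The 3 MC38-LM3b libraries stood well above the 3 MC38-LM3a libraries, which were close together. The ratio of mean TPM was 3.75 and the log2 fold change 1.12 with a standard error of 0.10 (limma adjusted p = 0.0112). Leaving out any 1 library other than MC38-LM3a replicate 3 raised its adjusted p above the threshold, to values from 0.0607 to 0.156, with log2 fold changes from 1.07 to 1.18. A replicate block did so as well (adjusted p = 0.0649, and 0.0727 with length and GC offsets).

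Ly9 (NCBI Gene 17085, chromosome 1), also called Slamf3, encodes a receptor of the SLAM family that binds itself between haematopoietic cells. Its TPM was 6.92, 6.50 and 8.16 in MC38-LM3a and 17.9, 16.1 and 17.6 in MC38-LM3b. Each MC38-LM3b library was above each MC38-LM3a library, and the parental libraries read 0.040, 0 and 0. Mean TPM was 7.19 ± 0.863 against 17.2 ± 0.924 (SD, n = 3 each), a ratio of 2.39, and the log2 fold change was 0.93 with a standard error of 0.07 (limma adjusted p = 0.00577). It therefore fell just under the fold threshold on the log2(TPM + 1) scale, and it passed it, at 1.01, after correction for transcript length and GC content. Leaving out MC38-LM3b replicate 1 or 3 gave adjusted p-values of 0.0911 and 0.0531.

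Padi4 (NCBI Gene 18602, chromosome 4) encodes a peptidylarginine deiminase, an enzyme that converts arginine in histones and other proteins to citrulline. Its TPM was 10.96, 12.2 and 13.8 in MC38-LM3a and 6.02, 5.46 and 6.56 in MC38-LM3b. The values did not overlap, and both derivatives were far under the parental libraries at 92.3, 92.6 and 79.9 TPM. The mean in MC38-LM3a was 2.04 times that in MC38-LM3b, and the log2 fold change was -1.14 with a standard error of 0.08 (limma adjusted p = 0.00577). It missed the threshold when MC38-LM3b replicate 1 was left out (adjusted p = 0.0911) and without centring (adjusted p = 0.0891).

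Ifitm1 (NCBI Gene 68713, chromosome 7), an interferon-induced membrane protein that restricts the entry of enveloped viruses, was at 117, 93.3 and 110.9 TPM in MC38-LM3a and 67.8, 67.5 and 72.6 TPM in MC38-LM3b. All MC38-LM3a libraries were above all MC38-LM3b libraries. The log2 fold change was -0.84 with a standard error of 0.09 (limma adjusted p = 0.0381). H4c9 (NCBI Gene 319158, chromosome 13), a replication-dependent histone H4 gene, was at 114, 102 and 121.0 TPM against 89.7, 84.2 and 82.1 TPM, with a log2 fold change of -0.61 and a standard error of 0.06 (limma adjusted p = 0.0248). Here too the lines did not overlap. Both transcripts are short, 882 and 727 bases. After correction for length and GC content neither passed the test, at -0.54 (adjusted p = 0.0677) and -0.28 (adjusted p = 0.136). With offsets from the RefSeq-matched transcripts neither did (adjusted p = 0.0835 and 0.130), whereas with offsets from the median transcript both did (adjusted p = 0.0349 and 0.0282). Both missed the threshold without centring (adjusted p = 0.0891 each) and with a prior variance without a trend (adjusted p = 0.0664 and 0.0592). The same held with a replicate block (adjusted p = 0.0935 and 0.0649). Leaving out MC38-LM3a replicate 2 or any 1 MC38-LM3b library raised the adjusted p of Ifitm1 to between 0.122 and 0.342. For H4c9, leaving out any 1 library other than MC38-LM3a replicate 3 raised it to between 0.0833 and 0.334. Histone genes share much of their sequence, so reads may have been split among copies.

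**Figure D1:**
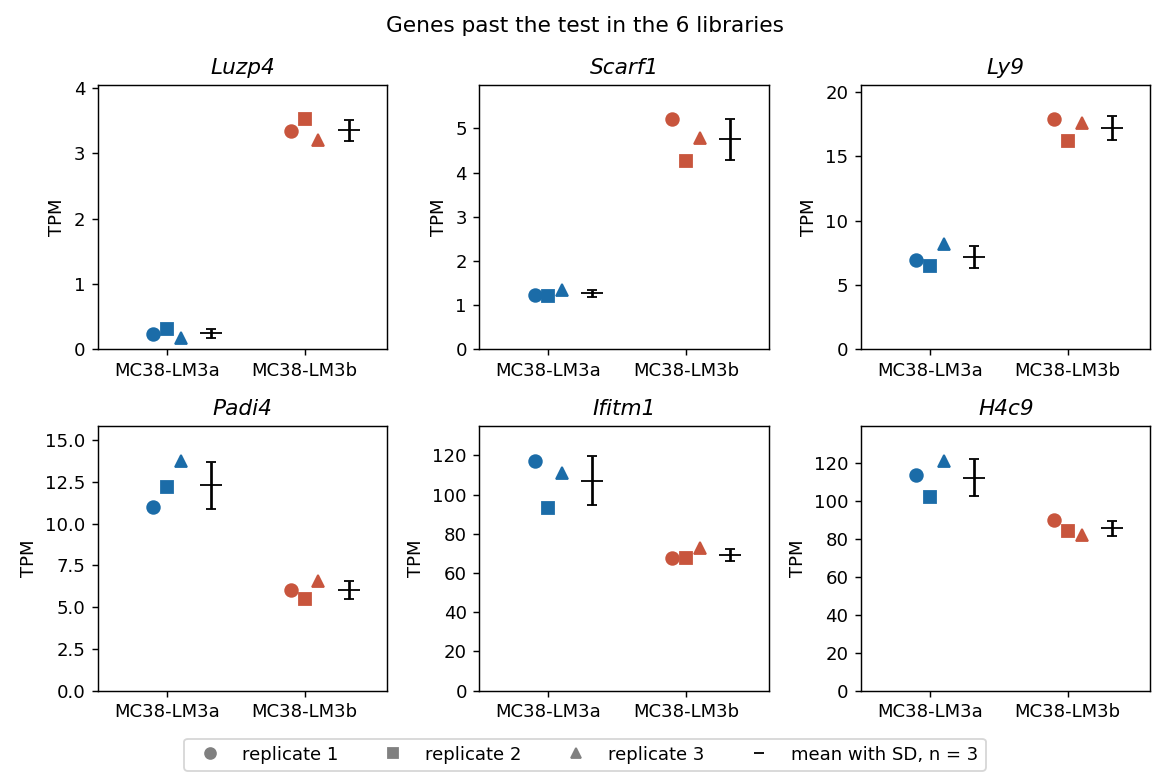
TPM (y axis, linear from 0) of the 6 genes past the test in the 6 libraries, by line, with each replicate as its own symbol and the mean with SD of 3 libraries beside them. Luzp4, Scarf1 and Ly9 are higher in every MC38-LM3b library, and Padi4, Ifitm1 and H4c9 in every MC38-LM3a library.

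Of the genes named in the study, Ly9 passed the test between the derivatives with all 6 libraries and the other tested ones did not. Fcho1, which helps to start clathrin-coated pits, was at 12.5, 11.7 and 14.95 TPM in MC38-LM3a and 17.3, 18.2 and 17.1 TPM in MC38-LM3b. Its log2 fold change was 0.18 (limma adjusted p = 0.145). Ctla2a, an inhibitor of cathepsin-like cysteine proteases, was at 17.8, 15.4 and 13.5 TPM against 21.7, 20.6 and 22.03 TPM, with a log2 fold change of 0.23 (adjusted p = 0.310). In both genes the TPM of the lines did not overlap, while the differences after centring were small. Runx1, a core-binding transcription factor, was at 8.49, 8.47 and 14.2 TPM in MC38-LM3a and 14.3, 14.2 and 14.8 TPM in MC38-LM3b, so that MC38-LM3a replicate 3 read like MC38-LM3b (log2 fold change 0.26, adjusted p = 0.189). The AP-1 subunit Junb had a log2 fold change of -0.10 (adjusted p = 0.379) and Cd47, the surface protein that restrains phagocytosis by macrophages, of -0.03 (adjusted p = 0.712), and both turned positive without centring, at 0.13 and 0.19. Polr2a, the large subunit of RNA polymerase II, was at 127, 128 and 212 TPM against 215, 204 and 219 TPM, again with MC38-LM3a replicate 3 at the level of MC38-LM3b. Its log2 fold change was 0.27 (adjusted p = 0.193). Without MC38-LM3a replicate 3, Fcho1 at 0.19, Runx1 at 0.39, Polr2a at 0.42 and Junb at -0.17 passed the test as well (limma adjusted p = 0.0198, 0.000766, 9.7e-05 and 0.00997), as did 54.0% of all genes tested. Ctla2a at 0.05 and Cd47 at -0.07 did not (adjusted p = 0.577 and 0.134). These calls moved with the processing. In the same 5 libraries corrected for length and GC content, Fcho1 at 0.14 and Junb at -0.0039 no longer passed (adjusted p = 0.103 and 0.954), while Ctla2a at 0.30 and Cd47 at -0.18 did (adjusted p = 0.0114 and 0.00774). Runx1 at 0.25 and Polr2a at 0.21 passed in both. Without centring, Junb and Cd47 passed in the opposite direction, at 0.14 and 0.24 (adjusted p = 0.0187 and 0.000441). Ikzf1, a lymphoid transcription factor, was listed at 0 in 5 of the 6 libraries and at 0.020 TPM in the other.

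Without MC38-LM3a replicate 3, 11080 genes were tested and 5979 passed, which is 54.0%. Of the genes tested, 23.5% were higher in MC38-LM3b and 30.5% were lower, 2603 and 3376 genes. The direction of this split depends on the centring, since without it 7330 genes were higher and 800 lower. The centred differences were mostly small, with a median absolute log2 fold change of 0.18. Only 16 genes were differentially expressed, which is 0.144% of those tested, 5 higher and 11 lower in MC38-LM3b. The 3 found with all 6 libraries were among them. The library that had been left out gives a measure outside that fit: for 813 of the 5979 genes, 13.6%, its centred value lay nearer to the other MC38-LM3a libraries than to MC38-LM3b. On a scale from 0, the mean of MC38-LM3a replicates 1 and 2, to 1, the mean of MC38-LM3b, its median position was 0.89.

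Of the 16 differentially expressed genes, 6 had the left-out library nearer to MC38-LM3a: Luzp4, Scarf1, Padi4, Serp2, Morn2 and Crip1. For Slpi it was a little nearer to MC38-LM3b, at a position of 0.55. Slpi, a secreted inhibitor of neutrophil elastase and other serine proteases, was at 43.6, 50.2 and 36.8 TPM in MC38-LM3a and 26.7, 25.0 and 29.1 TPM in MC38-LM3b. The lines did not overlap, and MC38-LM3a replicate 3 was the lowest of its line. Its log2 fold change was -1.09 without that library (limma adjusted p = 4.58e-05) and -0.89 with it (adjusted p = 0.140). With 5 libraries it was -0.64 after correction for length and GC content (adjusted p = 0.00116), within the fold threshold.

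Serp2, a small protein of the endoplasmic reticulum that associates with the translocon, was at 7.99, 7.35 and 6.72 TPM in MC38-LM3a and 4.38, 3.98 and 4.66 TPM in MC38-LM3b. Morn2, a small protein built of MORN repeats, was at 7.91, 9.76 and 8.66 TPM against 5.56, 3.67 and 5.33 TPM. Crip1, a LIM-domain protein, was at 20.1, 19.4 and 15.4 TPM against 13.7, 12.4 and 5.88 TPM, and was listed at 0 in the parental libraries. In these 3 genes, too, each MC38-LM3a library was above each MC38-LM3b library, and none passed the test with all 6 libraries (adjusted p = 0.0955 for Serp2, 0.116 for Morn2 and 0.143 for Crip1). With 5 libraries, the correction for length and GC content took the log2 fold change of Serp2 from -1.01 to -0.54, that of Morn2 from -1.07 to -0.61 and that of Crip1 from -1.22 to -0.73, and Crip1 no longer passed (adjusted p = 0.0823).

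Other members of the 16 rested on low or scattered values. Pet117, a small mitochondrial protein of cytochrome c oxidase assembly, was listed at 0, 4.32 and 29.2 TPM in MC38-LM3a and at 16.7, 10.1 and 6.79 TPM in MC38-LM3b. The left-out library was the highest of all 6, so the gain of 2.01 on the log2 scale without it was 0.86 with it (limma adjusted p = 0.564) and fell to -0.32 when MC38-LM3a replicate 1 was left out instead. The histone genes H4c2, H4c3, H4c18, H2ac23 and H2bc12 did not exceed 19.19 TPM in any of the 6 libraries. H4c3 alone of these was higher in MC38-LM3b, at 1.45, 0 and 3.52 TPM in MC38-LM3a and 2.90, 9.15 and 4.69 TPM in MC38-LM3b. Its lines overlapped, and the log2 fold change was 1.65 with 5 libraries (limma adjusted p = 0.0160) and 1.23 with 6 (adjusted p = 0.167). H4c2 was at 7.26, 9.13 and 3.83 TPM in MC38-LM3a and 3.94, 2.71 and 1.91 TPM in MC38-LM3b. H2bc12 was at 6.19, 6.32 and 0.95 TPM against 1.99, 4.66 and 3.27 TPM, with MC38-LM3a replicate 3 the lowest of the 6 libraries. After the correction H2bc12 and H4c18 no longer passed with 5 libraries (adjusted p = 0.0697 and 0.130). Gngt2, a gamma subunit of the G protein of cone phototransduction, was at 16.8, 14.7 and 9.75 TPM against 12.7, 6.05 and 6.49 TPM, and its lines overlapped. The centred values of the predicted genes Gm44504 and LOC118567625 overlapped between the lines as well.

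**Figure D2:**
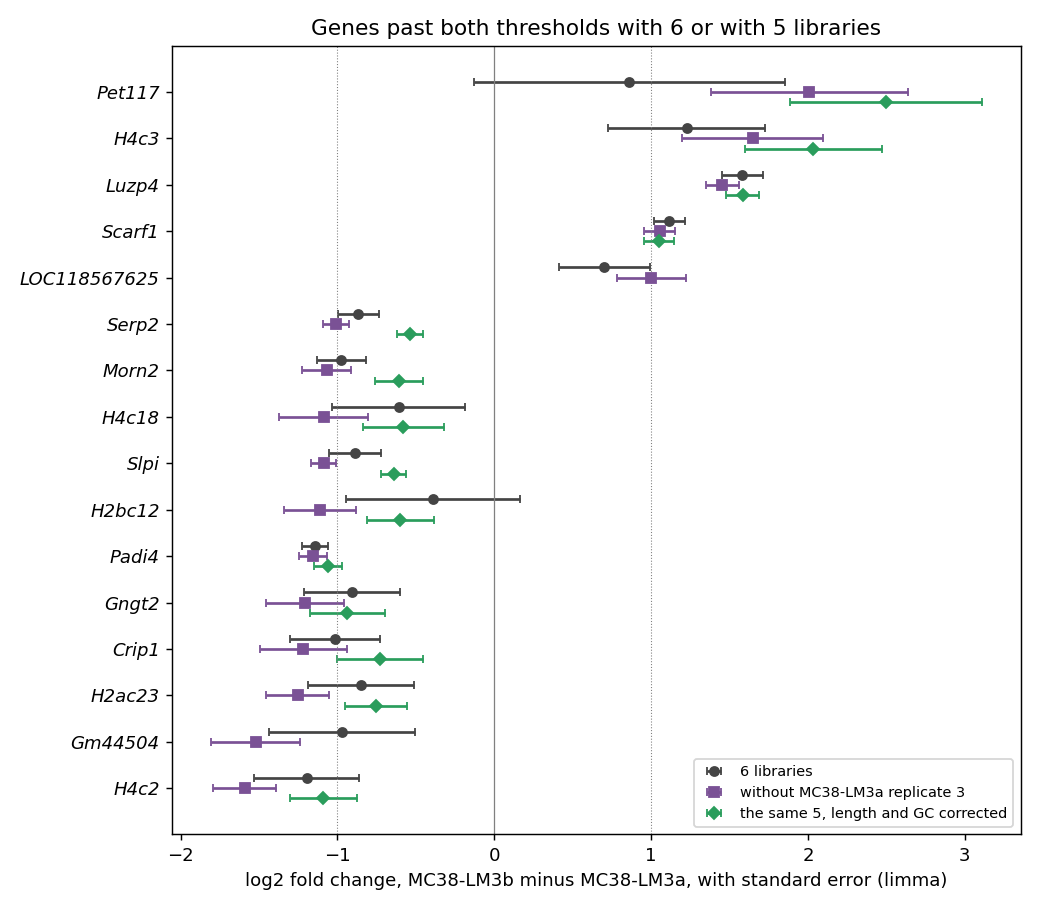
Log2 fold change of the 16 differentially expressed genes (x axis, MC38-LM3b minus MC38-LM3a, bars are standard errors from limma) with 6 libraries, without MC38-LM3a replicate 3, and without it after correction for length and GC content. Dotted lines mark a log2 fold change of 1 in either direction, and Luzp4, Scarf1, Padi4, H4c2 and H4c3 lie beyond them in all 3 fits; the uncharacterised genes Gm44504 and LOC118567625 have no corrected value.

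The difference between the lines followed transcript length. Across the genes with a known length, the Spearman correlation of the difference with the length of the longest coding transcript was 0.65 with 6 libraries (n = 10941 genes) and 0.69 without MC38-LM3a replicate 3 (n = 10901 genes), and that with GC content was -0.13 and -0.16. These are correlations across genes of the same libraries, and genes are not independent replicates. Length was defined in 3 ways, tried one after the other: with the median over all transcripts of a gene the correlation with 6 libraries was 0.37, with the longest coding transcript 0.65, and with the median over transcripts matched to a RefSeq mRNA 0.64. The longest coding transcript was kept for the values given here, after these correlations had been seen.

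MC38-LM3a replicates 1 and 2 ran one way with length and the other 4 libraries the opposite way. These levels are relative to the mean of the same 6 libraries, so which side departed cannot be told apart. In the shortest of 5 length groups of genes their median centred level stood 0.23 above the mean of the 6 libraries on the log2 scale in both, and in the longest group it was -0.16 and -0.14. MC38-LM3a replicate 3 was at -0.09 and 0.07, and the 3 MC38-LM3b libraries were between -0.13 and -0.11 in the shortest group and between 0.07 and 0.08 in the longest. By length, then, MC38-LM3a replicate 3 read like MC38-LM3b.

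**Figure D3:**
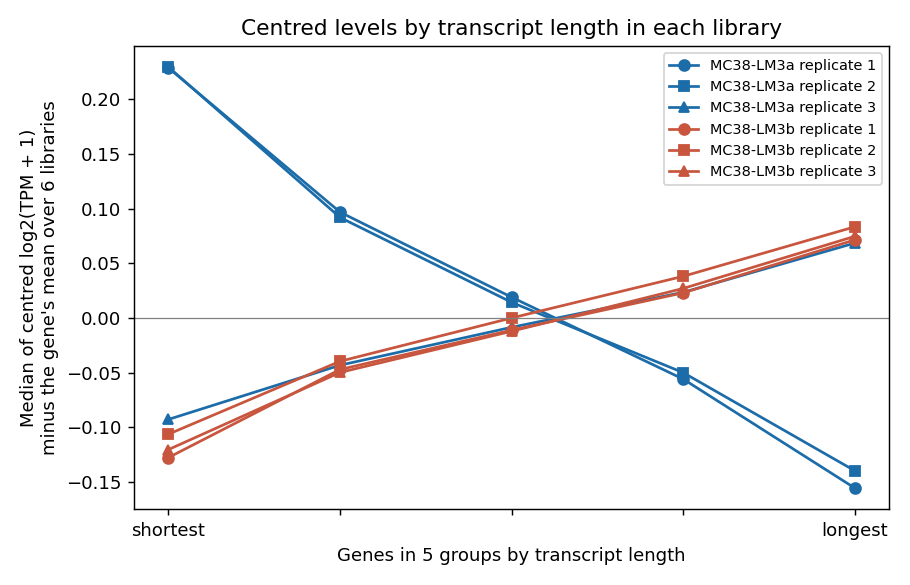
Median centred log2(TPM + 1) of each library minus the mean of the 6 libraries (y axis), in 5 groups of genes by transcript length (x axis, shortest to longest), 1 line per library. MC38-LM3a replicates 1 and 2 run from 0.23 down to -0.16 and -0.14, and the other 4 libraries, MC38-LM3a replicate 3 among them, run the opposite way.

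After a correction of each library for length and GC content, 11 genes passed the test with 6 libraries, 0.101% of 10941, and 4 were differentially expressed, 0.0366%. The 4 were Luzp4 at 1.67, Scarf1 at 1.10, Ly9 at 1.01 and Padi4 at -1.09 on the log2 scale (limma adjusted p = 0.00192, 0.00582, 0.00109 and 0.00251), of which Luzp4, tested only through MC38-LM3b, had to differ. Offsets from the RefSeq-matched transcripts gave 5 genes past the test and 4 differentially expressed, and offsets from the median transcript gave 9 and 3. Without MC38-LM3a replicate 3 the corrected values put 3131 of 10901 genes past the test, 28.7%, of which 13.1% of the genes tested were higher in MC38-LM3b and 15.7% lower. Differentially expressed were 13 genes, 0.119%, of which 11 were higher and 2 lower in MC38-LM3b, against 5 and 11 before the correction. Of the 14 differentially expressed before it that have a length, 6 were so after it. Without centring, 17 of 19 differentially expressed genes were higher. Of the 5901 genes with a length that passed before the correction, 2508 passed after it, 2451 of them in the same direction. The left-out library was nearer to MC38-LM3a for 23.3% of the 3131 genes and for 6 of the 13.

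Gene lists are described by counts in the 5 libraries, to be read against the 23.5% of all genes that were higher and the 30.5% that were lower, or 13.1% and 15.7% after the correction. The signs of several list medians depend on the centring. Without it, 7330 of all 11080 genes were higher and 800 lower, with a median of 0.29. In that fit, the ribosomal and respiratory lists kept medians under 0, at -0.33 with 80 of 82 genes lower and at -0.22 with 60 of 75 lower. The medians of glutathione metabolism, glycolysis and hypoxia, histone and class I genes turned to 0.03, 0.15, 0.03 and 0.19, and those of the epithelial list and the phagocytosis and checkpoint signals to 0.12 and 0.21. Each of these stayed under the median of all genes. The interferon-stimulated list then had 20 of 34 genes higher and none lower (median 0.35). Chemokines and cytokines had 13 of 23 higher and 3 lower (median 0.34). With quantile normalization 2953 of all 11080 genes were higher and 2586 lower, with a median of 0.01. The glycolysis, class I and phagocytosis medians were then above 0 as well, at 0.01, 0.09 and 0.06, and 50 of 82 ribosomal genes were lower (median -0.11). The medians of the extracellular matrix, integrin and scavenger receptor lists were above 0 under each of these scalings. With all 6 libraries nearly no member passed: of the lists described, only Ly9, Scarf1 and Luzp4 were higher and only H4c9 was lower. None of the 82 ribosomal (median -0.46), 75 respiratory (median -0.37) or 43 glutathione genes (median -0.18) passed with 6 libraries, before or after the correction. Cytosolic ribosomal proteins, the protein part of the ribosome, had 82 of 82 genes lower in MC38-LM3b, with a median log2 fold change of -0.64, and 72 of 82 lower after the correction, with a median of -0.27. Their summed level was 244998 and 247177 TPM in MC38-LM3a replicates 1 and 2, 200970 TPM in replicate 3 and 190595 to 193396 TPM in MC38-LM3b. The first 2 libraries thus stood above the rest. Rps15, a protein of the small subunit and the largest fall of the list, had a log2 fold change of -0.84, and of -0.35 after the correction.

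The nuclear-encoded respiratory chain, the subunits that carry electrons and make ATP in mitochondria, had 74 of 75 genes lower, with a median of -0.53, and 44 of 75 after the correction, with a median of -0.18. Ndufb4, a subunit of complex I, had the largest fall at -0.85, or -0.44 after the correction. Enzymes and carriers of glutathione metabolism were lower in 33 of 43 genes and higher in 1, with a median of -0.28, and after the correction in 13 and 2, with a median of -0.08. Gpx4, which reduces lipid peroxides and guards against ferroptosis, was at 839, 866 and 632 TPM in MC38-LM3a and 671, 649 and 631 TPM in MC38-LM3b. MC38-LM3a replicate 3 read within the range of MC38-LM3b. Anpep, a peptidase of glutathione breakdown, was the 1 gene of this list that was higher before the correction, at 0.29. With 6 libraries it was at 0.17 (limma adjusted p = 0.309). Its MC38-LM3a replicate 3, at 29.4 TPM, lay within the range of MC38-LM3b, 27.7 to 29.7 TPM.

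Glycolysis and hypoxia genes were lower in 21 of 38 and higher in 5 (median -0.16), and lower in 16 and higher in 2 after the correction (median -0.11). With quantile normalization 12 were higher and 8 lower, beside 2953 higher and 2586 lower of all 11080 genes. Ankrd37, a target of hypoxia-inducible factors, had the largest fall at -0.75, and Epas1, which encodes the factor HIF-2 alpha, the largest rise at 0.39. After the correction neither passed with 5 libraries, at -0.34 and 0.25 (adjusted p = 0.324 and 0.0631), and with all 6 libraries neither passed before it (adjusted p = 0.151 and 0.143). The histone list had 12 of 22 genes lower and none higher in 5 libraries, and 6 lower and 1 higher after the correction, when its median was -0.01. H4c9 is on that list, whereas H4c2, H4c3, H4c18, H2ac23 and H2bc12 are not. H3c2, with the largest positive difference on it in 5 libraries, was at 0, 1.18 and 0.79 TPM in MC38-LM3a and 1.45, 2.76 and 2.10 TPM in MC38-LM3b, a log2 fold change of 0.73 with 6 libraries (adjusted p = 0.160). With 5 libraries H3c2 was at 0.74 (limma adjusted p = 0.0879), and after the correction it passed, at 1.24 (adjusted p = 0.0201).

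Extracellular matrix genes and integrins went the other way before the correction. Of 38 extracellular matrix genes 24 were higher and 3 lower, with a median of 0.20, but after the correction 8 were higher and 3 lower and the median was 0.04. Col7a1, the collagen of anchoring fibrils, was at 58.3, 53.2 and 97.5 TPM in MC38-LM3a and 110.4, 106 and 104 TPM in MC38-LM3b. The lines did not overlap, but MC38-LM3a replicate 3 was close to MC38-LM3b. Fn1, the matrix glycoprotein fibronectin, was at 13.7, 11.8 and 20.2 TPM against 25.5, 23.5 and 24.3 TPM. Its log2 fold change was 0.46 with 6 libraries (limma adjusted p = 0.140) and 0.58 with 5 (adjusted p = 0.000248), and 0.28 with 5 after the correction. Tgfbi, a secreted matrix protein induced by TGF-beta, had the largest fall of the list at -0.37 and did not pass after the correction (-0.28, adjusted p = 0.140). Integrins, the receptors for these proteins, had 7 of 12 genes higher and none lower, and 5 higher and 1 lower after the correction. Itga10, a collagen receptor subunit, had the largest rise at 0.50, and did not pass with 6 libraries (limma adjusted p = 0.165). Its MC38-LM3a replicate 3, at 8.87 TPM, lay within the range of MC38-LM3b, 8.81 to 10.09 TPM.

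Scavenger receptors had 5 of 9 genes higher and none lower, both before and after the correction, with a median of 0.21 in each. The 5 were not the same genes. Megf10 passed only before the correction (0.31, then 0.08) and Cd68 only after it (0.01, then 0.37), and Lrp1 went from 0.60 to 0.16. The largest rise was that of Scarf1, the only member past the test with 6 libraries. The summed level of the list, not centred, was 295, 283 and 405 TPM in MC38-LM3a and 442, 437 and 429 TPM in MC38-LM3b. In the SLAM family and its adaptors, 2 of 5 tested genes were higher, and after the correction Ly9 alone was. Of the 4 tested core-binding factor genes, 3 were higher, Runx2, a factor of bone formation, by 0.43 and Runx1 by 0.39, which were both 0.25 after the correction, and with 6 libraries none passed (adjusted p = 0.143 for Runx2).

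Epithelial genes were lower in 3 and higher in 2 of 11. Krt19, a keratin of simple epithelia, was at 154, 157 and 136 TPM in MC38-LM3a and 107, 107 and 109 TPM in MC38-LM3b. The lines did not overlap, and MC38-LM3a replicate 3 lay between the others of its line and MC38-LM3b. Its log2 fold change was -0.69 with 6 libraries (limma adjusted p = 0.138) and -0.52 after the correction (adjusted p = 0.0452). Tjp1, a scaffold of tight junctions, was at 83.7, 81.4 and 127 TPM against 130, 132 and 133 TPM. Of 18 mesenchymal genes, 8 were higher and 4 lower. S100a4, a calcium-binding protein of motile cells, had the largest fall of these at -0.72, which was -0.30 after the correction. The corrected counts were 1 higher and 3 lower for the epithelial list and 5 higher and 2 lower for the mesenchymal list.

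Interferon-stimulated genes were higher in 8 and lower in 7 of 34, with a median of 0.04, and after the correction 6 were higher and none lower. Oas3, which makes the activator of an antiviral ribonuclease, rose by 0.36. Isg15, a ubiquitin-like protein, was at 20.7, 24.4 and 15.8 TPM in MC38-LM3a and 20.8, 20.3 and 19.3 TPM in MC38-LM3b, and its log2 fold change of -0.46 in 5 libraries was -0.0028 after the correction. Class I antigen presentation genes were lower in 11 and higher in 2 of 23, and lower in 2 and higher in 6 after the correction. Nlrc5, the transactivator of class I genes, was at 9.87, 9.41 and 15.9 TPM against 17.9, 17.4 and 17.98 TPM, and Psmb10, a subunit of the immunoproteasome, at 94.2, 90.5 and 73.4 TPM against 82.6, 69.3 and 75.7 TPM. With 6 libraries neither passed the test (adjusted p = 0.143 and 0.160).

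Chemokines and cytokines were higher in 5 and lower in 6 of 23, and after the correction higher in 7 and lower in 2. Il15, a cytokine that sustains natural killer and memory T cells, was at 3.06, 2.69 and 3.69 TPM in MC38-LM3a and 5.09, 5.03 and 5.24 TPM in MC38-LM3b. The lines did not overlap, and the log2 fold change was 0.35 with 6 libraries (limma adjusted p = 0.140) and with 5 (adjusted p = 0.00807), and 0.54 with 5 after the correction. Mif, a cytokine that holds macrophages in place, was at 1619, 1699 and 1272 TPM against 1271, 1279 and 1235 TPM, with MC38-LM3a replicate 3 within the range of MC38-LM3b. Phagocytosis and checkpoint signals were higher in 4 and lower in 7 of 20 (median -0.11), and after the correction higher in 3 and lower in 4 (median -0.01). Tnfrsf14, the receptor HVEM of the tumour necrosis factor family, was at 6.04, 6.45 and 8.84 TPM against 11.7, 10.8 and 10.5 TPM, a log2 fold change of 0.41 in 5 libraries and 0.79 after the correction. Lgals3, the galactose-binding lectin galectin-3, fell by 0.57 in 5 libraries and, after the correction, by 0.26. With 6 libraries its log2 fold change was -0.37, and -0.16 after the correction (limma adjusted p = 0.168 and 0.274). Its MC38-LM3a replicate 3, at 429 TPM, was below every MC38-LM3b library, at 447 to 454 TPM.

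**Figure D4:**
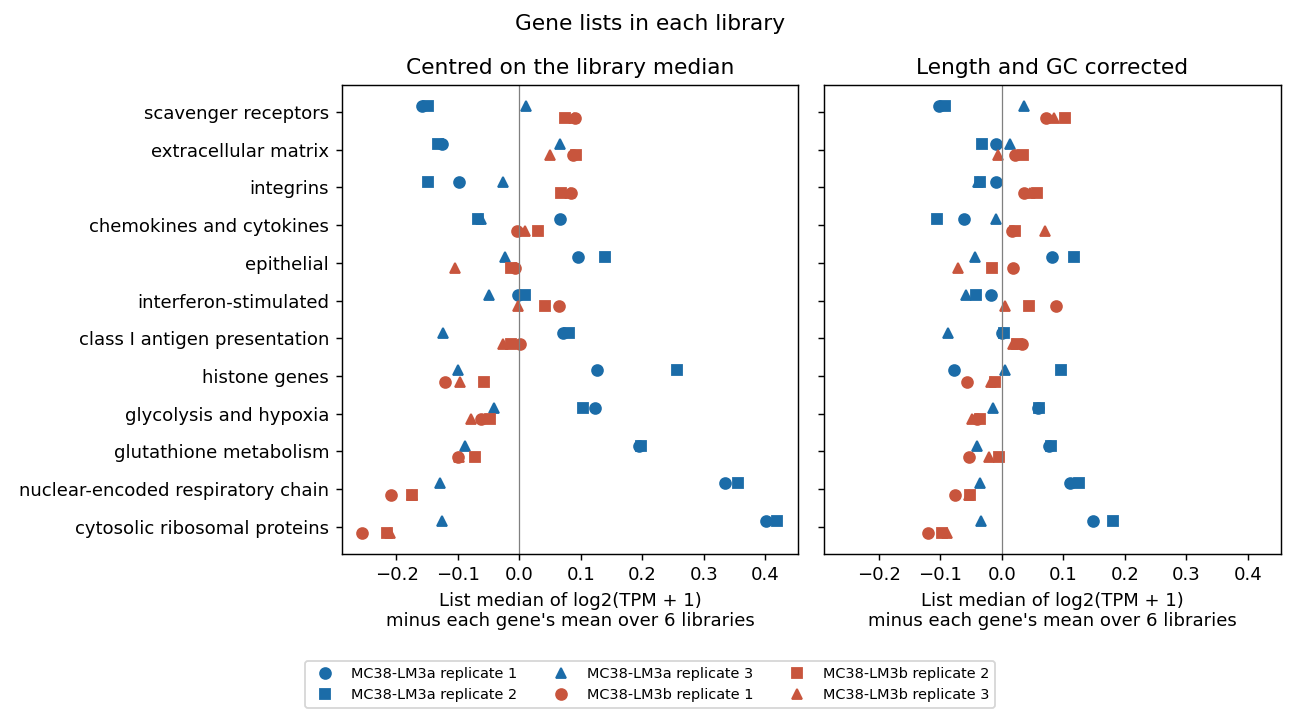
Median of each gene list in each library (x axis, log2(TPM + 1) minus each gene's mean over the 6 libraries), centred on the library median at left and corrected for length and GC content at right. Before the correction the ribosomal and respiratory lists separate MC38-LM3a replicates 1 and 2 from the other 4 libraries, and after it MC38-LM3a replicates 1 and 2 stay above the other 4 libraries in both lists, over a narrower range.

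In 3392 of the 11123 genes tested, 30.5%, the centred values of the 3 MC38-LM3b libraries did not overlap those of the 3 MC38-LM3a libraries. Among the largest differences that missed the adjusted threshold with 6 libraries, Clstn3, a synaptic adhesion protein of the cadherin superfamily, was at 0.58, 0.38 and 0.90 TPM in MC38-LM3a and 1.98, 2.32 and 2.24 TPM in MC38-LM3b (log2 fold change 0.76, limma adjusted p = 0.0802). All its MC38-LM3a values were under 1 TPM, so it too was tested only through MC38-LM3b, and it was not tested with any 1 MC38-LM3b library left out. Zfp973, a zinc finger protein, was at 6.88, 5.31 and 4.98 TPM against 10.4, 12.4 and 15.7 TPM (0.81, adjusted p = 0.140). In both, MC38-LM3a replicate 3 lay with its own line. Mt4, a metallothionein that binds metal ions, was at 1.22, 0 and 0 TPM against 1.24, 2.58 and 2.66 TPM (1.02, adjusted p = 0.1498), and the predicted gene Gm52523 at 1.21, 0.51 and 1.69 TPM against 2.51, 3.59 and 2.32 TPM (0.64, adjusted p = 0.143). The pseudogene-like Gm6958 was at 19.13, 18.3 and 32.5 TPM against 13.4, 13.1 and 12.95 TPM (-0.95, adjusted p = 0.0802), and the histone genes H3c13 and H2aw had differences of -1.09 and -0.93. The histone gene H2ac18 was at 4.79, 8.76 and 6.20 TPM against 0, 0 and 9.19 TPM, and the lines overlapped in it and in H3c13.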

How the data were processed

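RNA from cultured cells was poly(A)-selected and sequenced on the DNBSEQ platform. The authors deposited TPM for each library, rounded to 2 decimals, as tables of 16399 genes that give NCBI Gene numbers and symbols. The submitters' processing notes name HISAT and GRCm39, and the quantification tool is not given in the sources used here. The files hold no counts, so depth is unknown and the differential count test named by the study was not run. The gene lists, the comparison and the naming rule were chosen with earlier results of these data known.

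Values were log2(TPM + 1) of genes that reached 1 TPM in 3 or more libraries, centred on each library's median, and fitted in R 4.3.3 with limma 3.58.1 (a mean per line, empirical Bayes, trended variance, Benjamini-Hochberg adjustment over all tested genes). The fit was repeated without MC38-LM3a replicate 3. Fold changes on this scale understate those of low genes. Genes were named when differentially expressed in either fit, when among the 10 largest rises or falls of the 6-library fit (filled by unadjusted p), when named by the study, or as the largest rise and fall of a described list. The corrected values subtract a loess fit (span 0.3) on transcript length and GC content per library, from GENCODE M21 transcripts (GRCm38), available for 98.4% of tested genes. Of 3 definitions of length, the first was the median transcript, the second the longest coding transcript, which is used here, and the third the RefSeq-matched transcripts, tried after corrected values of single genes had been seen. All 3 are reported. The procedure was tested on simulated data. Figures were drawn with matplotlib 3.10.9.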

Additional observations from a re-analysis of the deposited data

How the results depend on the processing

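Depth is unknown, 3 libraries per line limit the precision, and 1 library decides most of the counts. The number of genes past the test with 6 libraries was 6. It was 3 without centring, 11 without a filter, 12 with all 9 libraries in the model, 11 with length and GC offsets and 6074 with array weights, which gave 14 differentially expressed genes in place of 3. Leaving out 1 replicate in turn gave 0 to 5979 genes past the test and 0 to 16 differentially expressed. The highest counts came without MC38-LM3a replicate 3 and the lowest, 0 and 0, without MC38-LM3b replicate 1 (limma, 1573 genes at an unadjusted p under 0.05). Leaving out MC38-LM3a replicate 2 gave 3 genes past the test, and MC38-LM3b replicate 2 or 3 gave 2 each, with 1 differentially expressed gene without MC38-LM3b replicate 2.

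With the 5 libraries, 5979 genes passed. Length and GC offsets gave 3131, offsets from RefSeq-matched transcripts 3260, offsets from the median transcript 5383 and no filter 9398. Of 16 differentially expressed genes, a pseudocount of 0.1 gave 35 and offsets from the median transcript 9, and leaving out 1 further replicate gave 13 to 26, the most without MC38-LM3a replicate 1. Without MC38-LM3a replicate 1 or 2 as well, that line is a lone library, assumed to vary like MC38-LM3b. The alternatives for 5 libraries, other than no centring and the length and GC offsets, and both other definitions of length were chosen after seeing the data. Without centring the median gene was 0.21 higher in MC38-LM3b with 6 libraries and 0.29 with 5, and the split was 7330 higher and 800 lower in place of 2603 and 3376. With quantile normalization it was 2953 and 2586.

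The deviations of same-numbered libraries correlated at 0.04, 0.08 and 0.07. They were not set against those of differently numbered libraries, so whether replicate numbers pair the samples was not tested. With a replicate block, 3 genes passed the test, Luzp4, Ly9 and Padi4. Of these, Luzp4 was tested only through MC38-LM3b and had to differ, with or without the block. Scarf1, Ifitm1 and H4c9 did not (limma adjusted p = 0.0649, 0.0935 and 0.0649). With the block and length and GC offsets the same 3 genes passed, and Scarf1 did not (adjusted p = 0.0727).

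Signs turned as follows. With 6 libraries, Pet117 ranged from -0.32 without MC38-LM3a replicate 1 to 2.01 without MC38-LM3a replicate 3, Junb was at 0.13 and Cd47 at 0.19 without centring, Cd47 at 0.0655 with quantile normalization, and Isg15 at 0.00944 without centring and 0.11 with length and GC offsets, with RefSeq-matched offsets and with the block and offsets. With 5 libraries, Ctla2a was at -0.0050 without a filter and -0.0438 without MC38-LM3a replicate 2, Junb at 0.14 and Cd47 at 0.24 without centring, and Cd47 at 0.0688 with quantile normalization. The cause was not tested in any of these.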

Other observations

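By chromosome, the median difference after correction for length and GC content, in the 5 libraries, was highest on chromosome 6 at 0.06 (511 genes, 117 higher in MC38-LM3b and 46 lower) and lowest on chromosome 4 at -0.06 (686 genes, 57 higher and 163 lower) and chromosome 14 at -0.05 (372 genes, 31 higher and 78 lower). Over all 10901 genes of that fit, 13.1% were higher and 15.7% lower. With all 6 libraries the corrected medians of these chromosomes were 0.06, -0.06 and -0.04. These are descriptions over genes of the same libraries, with no test.

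Among the other lists, with 5 libraries and no correction, TGF-beta and BMP genes were higher in 15 and lower in 2 of 33, DNA methylation genes higher in 8 and lower in 1 of 17, cell cycle genes higher in 9 and lower in 22 of 45, and cathepsins and Ctla2 genes lower in 9 of 12 and higher in none. After the correction the counts were 6 and 1, 2 and 1, 7 and 15, and 1 higher and 4 lower. Without centring, the cell cycle list had 31 higher and 2 lower (median 0.23) and the cathepsins and Ctla2 list 8 higher and 2 lower (median 0.13), so the sign of both medians depends on the centring. Over all 11080 genes 7330 were then higher and 800 lower, with a median of 0.29, and both list medians stayed under it. None of these genes passed the test with 6 libraries.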
